A study of Mus musculus with 2 samples.

Results

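The 10 heat shock protein and chaperone genes Hspa8, Hspa5, Hspa9, Hspa4, Hsph1, Hsp90aa1, Hsp90ab1, Hsp90b1, Hspd1 and Hspe1 were described across 17 lists of N6-methyladenosine (m6A) positions called from nanopore direct RNA sequencing (DRS). A position belonged to a gene when it lay in an exon of that gene on the same strand of GRCm38, and the genes held 370 of the 160430 unique positions in the lists. The RNA was poly(A)-selected mRNA from mouse 129 embryonic stem cells (mESCs). In the Mettl3 knockout (KO) cells, exons 5 to 7 of Mettl3, the catalytic subunit of the m6A methyltransferase, had been replaced by puromycin and hygromycin resistance genes with CRISPR–Cas9, and colonies with both alleles replaced were selected. They were compared with wild-type (WT) cells of the same source. There was 1 library per condition, so no test across libraries was possible. Intervals below are 95% Wilson intervals that cover counting error only, and positions within a gene share its reads and are not replicates. Over the replaced exons, WT lists held 2 positions of Mettl3 and KO lists 0, and over the whole gene 13 and 5.

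Each of the 10 tools turns raw current or base-calling errors into a list of candidate m6A positions. Tombo, MINES, Nanom6A and m6Anet work on the current of 1 sample, and ELIGOS and Epinano on its errors. According to the paper, MINES takes values from Tombo as input, and Nanom6A uses current that Tombo assigned to bases. Listings by these tools are therefore not independent. xPore models the current of both samples together and has a list for each. Nanocompore, DiffErr and DRUMMER compare WT with KO and have 1 list each, called comparison lists below. The lists hold positions only, without read numbers, rates or scores. The depth behind a position is thus unknown beyond the minimum of reads in the methods, which was higher for m6Anet. A listing absent for want of reads and one absent for want of m6A cannot be told apart, nor can fewer cells and less RNA per cell.

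Chaperones bind nascent or unfolded polypeptides and help them fold, and the constitutive members are among the abundant transcripts of dividing cells. Hsp70 proteins clamp short hydrophobic stretches in a cycle of ATP hydrolysis, Hsp110 proteins reload them with ATP, Hsp90 proteins act later on a set of clients that includes kinases and steroid receptors, and the Hsp60 chaperonin encloses proteins in a chamber capped by Hsp10. m6A is written co-transcriptionally on adenosines in RRACH sequences (A or G, A or G, A, C, then A, C or T) and is known to gather near stop codons and in long exons. All 370 chaperone positions lay in RRACH, the context to which the study limited its evaluation.

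The positions on which the results turn were those in all 3 comparison lists, shown here with 10 bases on each side of the central adenosine and the RRACH 5-mer in capitals, read from the GRCm38 genome on the strand of the gene.
Hspa8 chr9:40803343-40803363 (+): ggcacactGGACCctgtagag
Hspa8 chr9:40803379-40803399 (+): gccaagctGGACAagtcacag
Hspa5 chr2:34776144-34776164 (+): taaatactGGACTcaggaact
Hspa4 chr11:53261612-53261632 (-): cctgagatGGACAttgattga
Hsp90aa1 chr12:110693849-110693869 (-): ctgttgaaGGACAattagaat
Hsp90aa1 chr12:110692850-110692870 (-): gagaccaaGGACCaggttgct
Hsp90aa1 chr12:110692705-110692725 (-): ccaaagaaGGACTggaacttc
Hsp90ab1 chr17:45569683-45569703 (-): ttcatcatGGACAgctgtgac
Hsp90b1 chr10:86691023-86691043 (-): cttttgagAGACTtgttttgg
Hspd1 chr1:55078336-55078356 (-): gaagagaaGGACCctggaatg
Hspd1 chr1:55077955-55077975 (-): gagcatcaGGACTgtagcgct
Of these 11 positions, 10 had a 5-mer that starts with GGAC, and the exception was the AGACT of Hsp90b1.

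The 370 positions fell into 355 that a WT list held and 341 that a KO list held, and 326 were in both. The WT lists alone held 29 and the KO lists alone 15. Absent from every KO list were 8.17% of the WT positions (5.75 to 11.5), against 41.0% of the WT positions over all genes. A comparison list held 40 of the 370, or 10.8% (8.04 to 14.4), against 1.97% of all listed positions, and all 40 were also in a WT list. For 20 of the 40, and for 6 of the 11 in all 3 lists, the 21 bases around the position also occur in a transcript of another gene, and without all such positions a comparison list held 20 of 253, or 7.91% (5.18 to 11.9). Most of the chaperone listings were thus present in both libraries, while the share in a comparison list was above that of all positions. The genes were chosen by name with earlier results of these data known, and how depth or transcript level bears on either share was not tested.

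**Figure D1:**
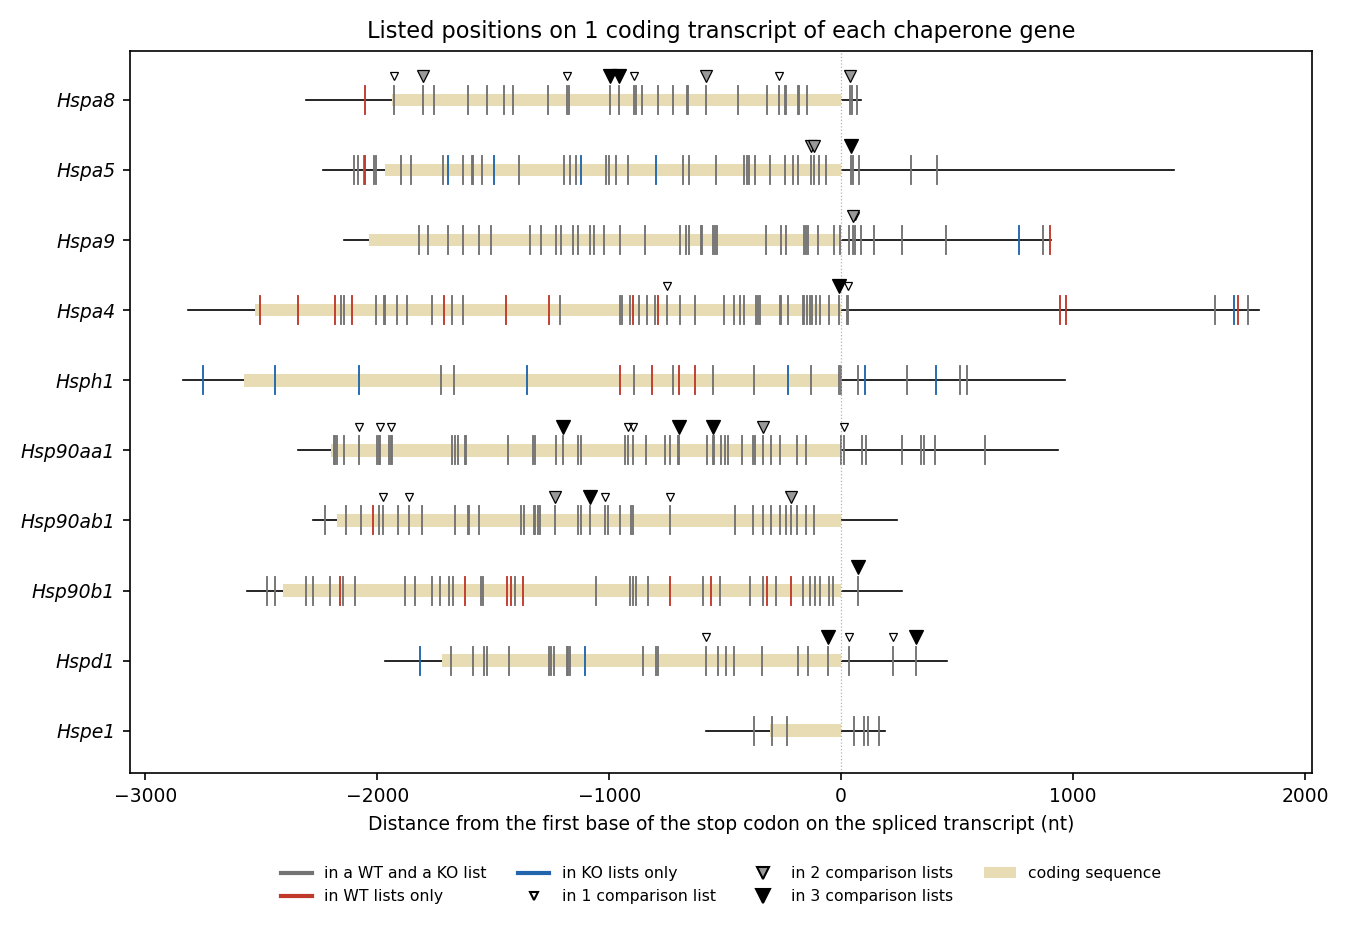
Each row is 1 coding transcript, drawn in nt from the first base of its stop codon (dotted line), with the coding sequence as a band. Ticks are listed positions, grey in both libraries (326), red in WT lists only (29) and blue in KO lists only (15), and triangles mark the 40 positions in 1, 2 or 3 comparison lists. Red ticks gather in Hspa4 and Hsp90b1, and triangles lie along the coding sequences of Hspa8, Hsp90aa1 and Hsp90ab1 but near the stop codon in Hspa5, Hspa9 and Hsp90b1.

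Nanom6A listed most of the positions. It listed 316 in WT and 301 in KO, with 291 in both, 25 in WT only and 10 in KO only. Its WT list held 89.0% of the 355 WT positions, whereas over all genes it held 26.0% of the positions in a WT or comparison list. For 172 of the 355 positions, or 48.5%, Nanom6A was the only tool that listed them in WT or in a comparison, against 10.3% over all genes. Tombo followed with 118 positions in WT and 111 in KO, a share of 33.2% in WT against 58.3% over all genes. m6Anet listed 62 in WT and 40 in KO, a share of 17.5% against 18.2%. These shares depend on each other, since Nanom6A filled most of the WT positions, and the shares per RRACH position are given below. Epinano listed 24 and 10 positions (6.76% in WT against 34.5% over all genes), MINES 16 and 17 (4.51% against 10.4%), xPore 16 and 12 (4.51% against 4.16%), and ELIGOS 10 and 3 (2.82% against 4.63%). Of the 341 KO positions, Nanom6A held 88.3% (25.9% over all genes), Tombo 32.6% (63.2%), m6Anet 11.7% (12.7%) and MINES 4.99% (8.77%). Also in KO, xPore held 3.52% (2.22%), Epinano 2.93% (14.0%) and ELIGOS 0.8798% (1.44%).

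The share of a tool's WT positions that the same tool did not list in KO was below the share over all genes for each of the 7 tools. It was 7.91% for Nanom6A (5.42 to 11.4), against 34.6% over all genes. It was 15.3% for Tombo (9.87 to 22.8), against 40.3%. For m6Anet, 35 of 62 WT positions, or 56.5% (44.1 to 68.1), were absent from its KO list, and the share over all genes, 65.6%, lay within that interval. The intervals of the smaller lists were wide. Epinano left out 62.5% (42.7 to 78.8; 83.5% over all genes), ELIGOS 70.0% (39.7 to 89.2; 88.5%), xPore 37.5% (18.5 to 61.4; 75.1%) and MINES 25.0% (10.2 to 49.5; 59.8%). How the separate WT and KO lists of xPore were made from its joint model is not given in the sources used here, so its share may not compare with the others. Among the smaller lists, the share over all genes lay within the interval only for ELIGOS. When a KO listing by any tool counted, the shares of the chaperone genes were 6.01% for Nanom6A (19.3% over all genes), 5.08% for Tombo (34.1%) and 4.84% for m6Anet (35.9%). For Epinano it was 8.33% (56.3%), for MINES 6.25% (31.1%) and for ELIGOS 0% (32.4%). These any-tool shares rest largely on the KO list of Nanom6A, which held 301 of the 341 KO positions. Without the positions whose 21 bases recur in another gene, the share of Nanom6A was 12.4%.

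**Figure D2:**
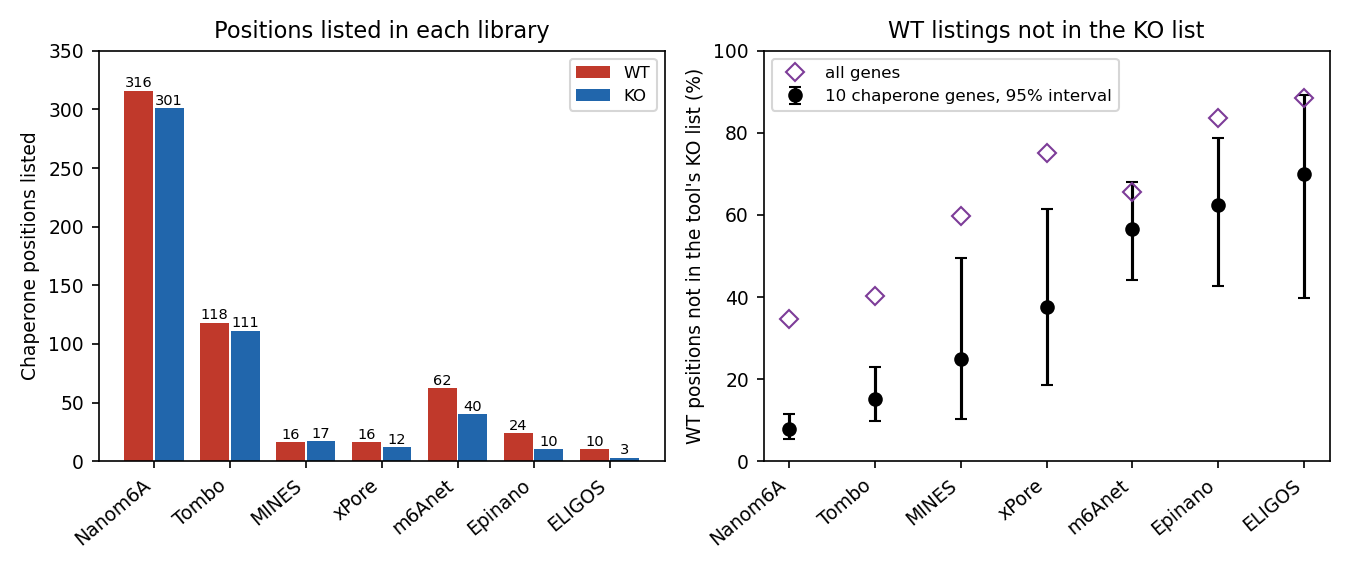
Left, chaperone positions in the WT and KO list of each tool with both lists. Right, share of the tool's WT positions absent from its KO list, for the 10 genes (circles with 95% Wilson intervals) and for all genes (diamonds). The circles run from 7.91% for Nanom6A to 70.0% for ELIGOS, and only for m6Anet and ELIGOS does the diamond lie within the interval.

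The RRACH sequences of the transcripts gave a fixed number of places where a tool could list a position. The coding transcripts named most often in the lists held 467 RRACH positions, of which a WT list held 76.0% and a KO list 73.0%. Nanom6A listed 67.7% of them in WT (63.3 to 71.7) and 64.5% in KO (60.01 to 68.7), while over all genes with a listed position on such a transcript it listed 6.52% and 5.37%. Tombo listed 25.3% in WT and 23.8% in KO, against 14.9% and 13.5% over all genes. m6Anet listed 13.3% and 8.57%, against 4.72% and 2.74%. The smaller lists held few RRACH positions of these transcripts, with 5.14% in WT and 2.14% in KO for Epinano (8.74% and 2.94% over all genes), and 3.43% and 3.64% for MINES (2.66% and 1.87%). The shares were 3.43% and 2.57% for xPore (1.08% and 0.481%), and 2.14% and 0.642% for ELIGOS (1.19% and 0.298%). A comparison list held 8.57%, against 0.640% over all genes. Among 9788 genes with at least 10 RRACH positions, the median share that Nanom6A listed in WT was 0% and the 90th percentile 37.5%. The median of the 9 chaperone genes of that size was 85.2%, and 8 of the 9 were above that percentile, the exception being Hsph1. For Tombo, none of the 9 exceeded the 90th percentile, also 37.5%.

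Nanom6A listed whole stretches of RRACH positions without a gap. In Hspa8, Hspa9, Hsp90aa1, Hsp90ab1 and Hspe1, it listed 100% of the RRACH positions between the first and the last position it listed in WT, which were 31, 41, 53, 39 and 7 positions. In KO, it listed the same number in Hspa8, Hspa9, Hsp90aa1 and Hspe1, and 38 of 39 in Hsp90ab1. The stretches of Hspa4 and Hspd1 were nearly complete in WT, with 98.04% and 88.5% listed, and those of Hspa5 and Hsp90b1 less so, with 75.0% and 66.0%. In KO, the shares were 81.2% in Hspa4 and 44.2% in Hsp90b1, both lower, and 100% in Hspd1 and 83.3% in Hspa5, both higher. Among genes with at least 10 Nanom6A listings, the share between the first and the last was 58.6% in WT over 1166 genes and 56.7% in KO over 931, against 90.1% and 86.1% over the 8 chaperone genes of that kind. The stretch was complete in 14.4% of the 1166 genes in WT and 15.3% of the 931 in KO, against 4 of the 8 chaperone genes in each. Hspe1, with 7 listings, was not among the 8. Both ends of a stretch are listed by definition. Nanom6A listed 68.4% of the 95 GGAC positions and 67.5% of the 372 others in WT, against 8.08% and 6.0% over all genes. Single 5-mers differed more, from 14 of 35 for AAACC, or 40% (25.6 to 56.4), to 29 of 35 for AGACC, or 82.9% (67.3 to 91.9), against 4.56% and 5.31% over all genes.

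**Figure D3:**
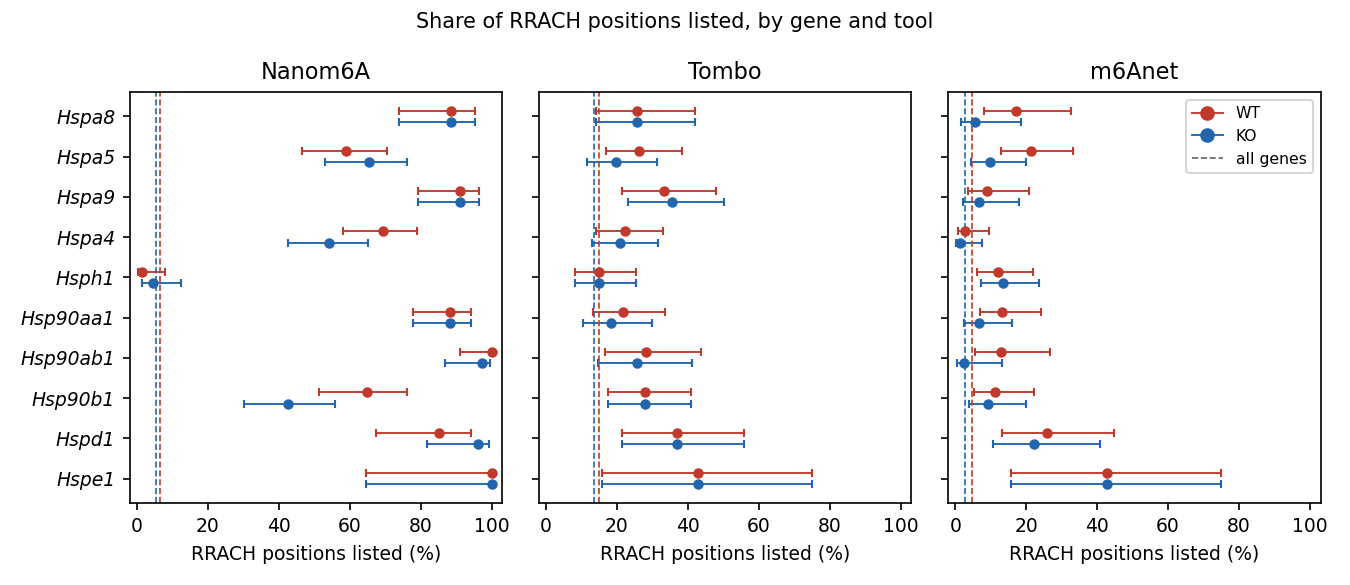
Share of the RRACH positions of 1 coding transcript per gene that Nanom6A, Tombo or m6Anet listed in WT (red) and KO (blue), with 95% Wilson intervals. Dashed lines give the share over all genes, 6.52% for Nanom6A in WT. In the Nanom6A panel, 9 genes lie between 42.6% and 100% and Hsph1 lies at 1.49% in WT and 4.48% in KO.

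m6Anet differed between the RRACH classes. Of its chaperone positions with a 5-mer that starts with GGAC, its WT list held 24 and its KO list 8, and 18 of the 24, or 75.0% (55.1 to 88.0), were absent in KO, against 71.6% over all genes. Of those that start with GAAC, the WT list held 26 and the KO list 29, and 7 of the 26, or 26.9% (13.7 to 46.1), were absent in KO, against 47.8% over all genes. Of those that start with A, the WT list held 12 and the KO list 3, and 10 of the 12, or 83.3% (55.2 to 95.3), were absent in KO, against 87.7% over all genes. For the GGAC and A classes, the shares over all genes lay within these intervals. The GAAC class was listed in similar numbers in both libraries, most often as GAACT, with 17 of 40 such positions in WT, or 42.5%, and 21 in KO, or 52.5%, against 15.8% and 13.9% over all genes. Tombo had 39 GGAC positions in its WT list and 33 in its KO list, and 7 of the 39, or 17.9%, were absent in KO, against 44.2% over all genes. For Tombo, the share was 4 of 10, or 40% (16.8 to 68.7), in the GAAC class, against 43.8% over all genes. In the class that starts with A, it was 7 of 69, or 10.1% (5.0 to 19.5), against 36.5%.

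**Figure D4:**
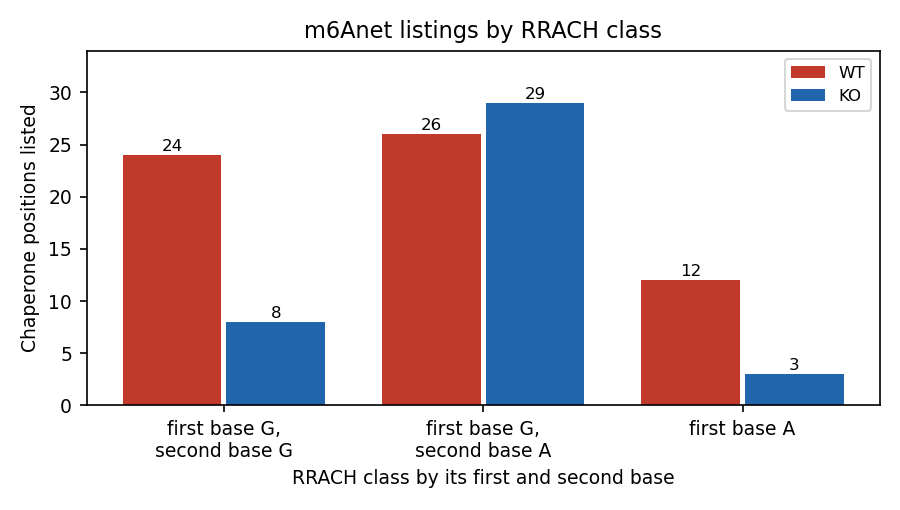
Chaperone positions that m6Anet listed in WT (red) and KO (blue), by the first and second base of the RRACH 5-mer. The count is 24 in WT and 8 in KO where both bases are G, 26 and 29 where the first is G and the second A, and 12 and 3 where the first base is A.

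Of the 40 positions in a comparison list, Nanocompore listed 33, DiffErr 20 and DRUMMER 18. These were 7.07%, 4.28% and 3.85% of the 467 RRACH positions, against 0.426%, 0.354% and 0.256% over all genes. In all 3 lists were 11, or 27.5% (16.1 to 42.8), against 16.4% of such positions over all genes. A further 9 were in 2 lists and 20 in 1, and 17 of those 20 came from Nanocompore. The 5-mer started with GGAC in 10 of the 11 in all 3 lists, 7 of the 9 in 2 lists and 7 of the 20 in 1 list. Shares by number of lists over all genes are not given here, so this order may not be particular to these genes. Together 24 of the 40, or 60% (44.6 to 73.7), started with GGAC, against 64.3% over all genes. The fifth base was C in 10 of them, A in 8 and T in 6.

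All 40 comparison positions were in the WT list of Nanom6A and 39 were in its KO list, or 97.5% (87.1 to 99.6), whereas over all genes these shares were 89.6% and 48.5%. m6Anet listed 19 of them in WT, or 47.5% (32.9 to 62.5), against 80.5% over all genes, and 3 in KO, or 7.5%, against 19.0%. Tombo listed 19 in WT and 12 in KO, against 76.3% and 37.2% over all genes. ELIGOS listed 6 in WT and 0 in KO, against 47.7% and 0.442%, and Epinano 7 and 1, against 57.6% and 3.85%. MINES, whose lists lack some of the RRACH 5-mers, listed 2 in WT and 2 in KO, against 20.2% and 5.84%. None of the 40 was absent from all KO lists, against 23.5% over all genes. For 23 of them, or 57.5% (42.2 to 71.5), Nanom6A was the only tool with a KO listing, against 19.7% over all genes. For 12 of the 40, or 30% (18.1 to 45.4), Nanom6A was also the only tool with a WT list that held the position, against 6.85% over all genes.

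**Figure D5:**
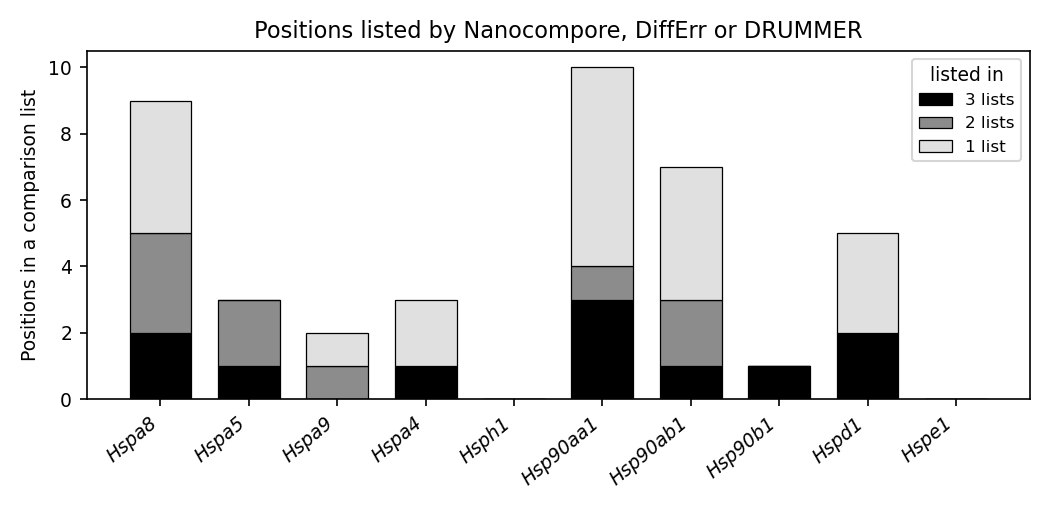
Positions per gene in a comparison list, shaded by the number of the 3 lists (Nanocompore, DiffErr, DRUMMER) that held the position. Hsp90aa1 has 10, Hspa8 9, Hsp90ab1 7, Hspd1 5, Hspa5 3, Hspa4 3, Hspa9 2 and Hsp90b1 1, and Hspe1 and Hsph1 have none.

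The comparison positions lay in the coding sequence in 30 cases and in the 3′ UTR in 10, and none lay in a 5′ UTR. Over all genes, 37.8% of the comparison positions on such transcripts lay in the coding sequence, 61.2% in the 3′ UTR and 0.960% in the 5′ UTR. The transcripts held 22 RRACH positions in 5′ UTRs, 359 in coding sequences and 86 in 3′ UTRs. Per RRACH position, a comparison list held 8.36% of those in the coding sequence and 11.6% of those in the 3′ UTR, against 0.444% and 0.965% over all genes. A window of 200 nt on each side of the stop codon, counted from its first base, held 12 of the 40, or 30% (18.1 to 45.4), against 15.0% of the RRACH positions (12.04 to 18.5). Over all genes, it held 51.5% of the comparison positions and 12.8% of the RRACH positions. By gene, the window held 1 of 9 comparison positions in Hspa8, 1 of 10 in Hsp90aa1 and 0 of 7 in Hsp90ab1. In the other 7 genes together, it held 10 of 14. These genes were set apart after their values were seen, and the window held 15 of the 134 RRACH positions of the first 3 genes and 55 of the 333 of the others.

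Over all WT lists, 64 of the 355 positions, or 18.03% (14.4 to 22.4), lay within 200 nt of the stop codon, which overlaps the interval of the RRACH positions. Over all genes, the window held 22.6% of the WT positions on such transcripts. m6Anet had 21 of 62 there in WT, or 33.9% (23.3 to 46.3), and 9 of 40 in KO, or 22.5% (12.3 to 37.5), against 31.6% and 24.0% over all genes. Of the 35 positions that m6Anet listed in WT only, 14, or 40% (25.6 to 56.4), lay in that window, against 33.9% over all genes. All 3 of these shares over all genes lay within the intervals. Epinano had 13 of its 24 WT positions in 3′ UTRs, or 54.2%, against 50.4% over all genes. Nanom6A had 32 of 316 there, or 10.1%, against 40.8% over all genes. Nanom6A listed 77.2% of the RRACH positions of the coding sequences in WT, 37.2% of those of the 3′ UTRs and 31.8% of those of the 5′ UTRs. Over all genes, its shares were 6.81%, 6.55% and 2.97%. The lower share in the 3′ UTRs did not hold in each gene. Nanom6A listed 2 of 23 RRACH positions there in Hspa4, 4 of 15 in Hspa5, 1 of 12 in Hsph1, 7 of 14 in Hsp90aa1 and 7 of 11 in Hspa9. It listed all of them in Hspa8 (3), Hspd1 (3), Hspe1 (4) and Hsp90b1 (1), and Hsp90ab1 had none there. In the 5′ UTRs, WT lists held 11 positions and KO lists 11, and 6 of the 11 in WT belonged to Hspa5.

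Hspa8, the constitutive cytosolic Hsp70, lies on chr9:40800984-40810087 and had 32 positions, 32 in WT and 31 in KO. Nanom6A listed the same 31 in both libraries. m6Anet listed 6 in WT and 2 in KO, both among the 6, and Tombo listed 9 in each, 8 of them shared. A comparison list held 9 of the 32, more than in any other of the genes but Hsp90aa1. Its 2 positions in all 3 comparison lists lie in exon 5, 36 nt apart. At 40803389, with GGACA, Tombo, MINES and Nanom6A listed the position in WT and again in KO, and at 40803353, with GGACC, only Nanom6A did, in both libraries. The GGACC at 40805153, the one comparison position of Hspa8 in the 3′ UTR, was listed by Nanom6A and m6Anet in WT and by Nanom6A alone in KO. Copies of Hspa8 limit these values. The 21 bases around 29 of the 32 positions, and around all 9 comparison positions, also occur in a transcript of another gene, and 11 positions were listed in 1 such pseudogene, Gm15459, by Tombo (8 in WT, 5 in KO) and MINES (1 in KO).

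Hspa5, the endoplasmic reticulum Hsp70 also called BiP, lies on chr2:34771970-34777547 and had 45 positions, 41 in WT and 44 in KO, and none of its windows recurs in another gene. Nanom6A listed 36 in WT and 40 in KO, with all 36 among the 40. m6Anet listed 13 in WT and 6 in KO, with 5 shared, Tombo 16 and 12, and Epinano 5 and 1. Nanom6A thus listed more positions in KO, and these other 3 tools listed more in WT. The position listed by the most tools of all 370 was in its 3′ UTR, the GGACT at 34776154, 43 nt beyond the first base of the stop codon. Tombo, Nanom6A, m6Anet, ELIGOS, Epinano and xPore listed it in WT, all 3 comparison lists held it, and in KO only Tombo and Nanom6A did. Both other comparison positions of Hspa5 lay upstream of the stop codon in the same exon, 9 nt apart.
Hspa5 chr2:34775973-34775993 (+): caggatgcGGACAttgaagac
Hspa5 chr2:34775982-34776002 (+): gacattgaAGACTttaaagcc
The first, with GGACA 128 nt before the stop codon, was listed by 6 tools in WT, by DiffErr and DRUMMER, and in KO by Nanom6A alone. The second, with AGACT 119 nt before it, was listed by Tombo, Nanom6A and m6Anet in WT, by Nanocompore and DiffErr, and again in KO by Nanom6A alone. The 2 windows overlap, so these listings share reads and bases.

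Hspa9, the mitochondrial Hsp70 also called mortalin, lies on chr18:34937414-34954357 and had 44 positions, 43 in WT and 43 in KO. Nanom6A listed the same 41 in both. m6Anet listed 4 in WT and 3 in KO, with 1 shared. Its 2 comparison positions lay 9 nt apart in the 3′ UTR, 51 and 60 nt beyond the first base of the stop codon. Nanocompore listed both and DiffErr the first, Tombo and Nanom6A listed both in each library, and m6Anet listed both in WT only. At 34938669, 161 nt before the stop codon, Tombo, MINES, Nanom6A, m6Anet and ELIGOS listed a position in WT and the same 5 tools listed it in KO, the highest number of tools in both libraries among the 370. No comparison list held that position.

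Hspa4 and Hsph1 encode Hsp110 proteins, the exchange factors of Hsp70, and their listings differed. Hspa4, on chr11:53259814-53300457, had the most positions of the 10 genes, 56, with 55 in WT and 44 in KO. Nanom6A listed 50 of its 72 RRACH positions in WT and 39 in KO, all 39 among the 50. Hsph1, on chr5:149614287-149636376, had 24 positions on 67 RRACH positions, with 17 in WT and 20 in KO, and Nanom6A listed 1 in WT and 3 in KO, none shared. m6Anet went the other way, with 2 in WT and 1 in KO in Hspa4 and 8 and 9 in Hsph1. Tombo listed 16 in WT and 15 in KO in Hspa4, and 10 in each in Hsph1. Of the RRACH positions of Hsph1, m6Anet thus listed 11.9% in WT, near the 13.3% of the 10 genes together, and Nanom6A 1.49%, far below their 67.7%.

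All 11 positions that Nanom6A listed in Hspa4 in WT only lay in the coding sequence, from 788 to 2507 nt before the stop codon. In its 3′ UTR of 1798 nt with 23 RRACH positions, Nanom6A listed 2, the farther of them 30 nt beyond the first base of the stop codon, and 6 positions beyond it were listed by other tools. The comparison position of Hspa4 in all 3 lists had GGACA 8 nt before the stop codon. Tombo, Nanom6A, m6Anet and ELIGOS listed it in WT, and Nanom6A alone in KO. When the coding sequences of Hspa4 and Hsph1 were aligned, this position fell on a GGACC of Hsph1 (149617517), which m6Anet and Epinano listed in WT, Epinano listed in KO, and no comparison list held. Both other comparison positions of Hspa4, the AGACT at 53261584 in the 3′ UTR and the GGACC at 53267000 in exon 14, were in the Nanocompore list alone and in the Nanom6A list of each library. No position of Hsph1 was in a comparison list. The one listed by the most tools had AGACT in the 3′ UTR (149617438), 71 nt beyond the first base of the stop codon, with Tombo, Nanom6A, m6Anet and Epinano in WT and xPore alone in KO.
Hsph1 chr5:149617428-149617448 (-): tgtataacAGACTgagtctat

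Hsp90aa1 and Hsp90ab1, the inducible and the constitutive cytosolic Hsp90, had 0 and 1 position, respectively, in WT lists and no KO list. Hsp90aa1, on chr12:110690605-110702728, had 54 positions, and all 54 were in a WT and in a KO list. Nanom6A listed the same 53 in both, m6Anet 8 in WT and 4 in KO, and Tombo 13 and 11. Hsp90ab1, on chr17:45567775-45573271, had 39 positions, one for each RRACH position of its transcript, with 39 in WT and 38 in KO. Nanom6A listed 39 and 38, m6Anet 5 and 1, and Tombo 11 and 10. In both genes, m6Anet thus listed fewer positions in KO while Nanom6A listed the same or 1 fewer.

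Despite this, Hsp90aa1 had 10 and Hsp90ab1 7 comparison positions, all in the coding sequences but 1 in the 3′ UTR of Hsp90aa1. In Hsp90aa1, Nanocompore listed all 10, and 3 of them were in all 3 lists: GGACA at 110693859 in exon 6, and GGACC at 110692860 and GGACT at 110692715, both in exon 9. The first was listed by Tombo, Nanom6A and xPore in WT and again in KO, and the other 2 by Nanom6A and m6Anet in WT and Nanom6A alone in KO. In Hsp90ab1, the position in all 3 lists, GGACA at 45569693 in exon 7, was listed by Tombo, Nanom6A, m6Anet and xPore in WT and by Nanom6A alone in KO. A GGACA of Hsp90aa1 at 110692384 was the reverse case, since Tombo, MINES, Nanom6A and m6Anet listed it in both libraries and no comparison list held it.
Hsp90aa1 chr12:110692374-110692394 (-): atatgggtGGACAgcaaacat
Windows of 41 of the 54 positions of Hsp90aa1, 8 of its 10 comparison positions among them, also occur in transcripts of other genes, against 11 of 39 positions and 1 of 7 comparison positions in Hsp90ab1.

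The coding sequences of Hsp90aa1 and Hsp90ab1 were identical at 76.6% of the aligned bases, and 16 RRACH positions fell at the same place in both. Lists of both libraries held all 16 in each gene, those of Nanom6A included. A comparison list held 4 of the 16 in Hsp90aa1 and 1 in Hsp90ab1. The shared one was a GGACT in Hsp90aa1 and a GGACA in Hsp90ab1, and Nanocompore was the only comparison list to hold either.
Hsp90aa1 chr12:110695359-110695379 (-): agtaaactGGACTcggggaag
Hsp90ab1 chr17:45571560-45571580 (-): tctaagttGGACAgtgggaaa
Tombo and Nanom6A listed the first in WT and Nanom6A alone in KO, while Tombo, MINES and Nanom6A listed the second in both libraries. In the less similar pairs there was no place where both genes had a comparison position, with 7 shared RRACH positions between Hspa8 and Hspa5 (67.7% identical), 6 between Hspa8 and Hspa9 (62.4%), 7 between Hsp90ab1 and Hsp90b1 (62.5%) and 12 between Hspa4 and Hsph1 (67.0%). Of the last 12, Nanom6A listed all 12 in Hspa4 in WT and none in Hsph1.

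Hsp90b1, the endoplasmic reticulum Hsp90 also called GRP94, lies on chr10:86690209-86705509 and had 42 positions, 42 in WT and 33 in KO. Nanom6A listed 35 in WT and 23 in KO, all 23 among the 35, while Tombo listed the same 15 in both, and m6Anet 6 and 5. With Hspa4, Hsp90b1 held 23 of the 25 positions that Nanom6A listed in WT only, and 21 of the 29 WT positions absent from every KO list. As a share of the Nanom6A WT positions of each gene, these were 34.3% in Hsp90b1 (20.8 to 50.8) and 22% in Hspa4 (12.8 to 35.2), not above the 34.6% over all genes. The other 8 genes together gave 2 of the 25, 1 in Hsp90ab1 and 1 in Hsph1. Of the 12 in Hsp90b1, 11 lay in the coding sequence, from 215 to 2277 nt before the stop codon, and the remaining one was its only comparison position. That was the AGACT in the 3′ UTR at 86691033, 71 nt beyond the first base of the stop codon, which Tombo, Nanom6A, m6Anet, ELIGOS and Epinano listed in WT, and Tombo and Epinano in KO. It was the only comparison position of the 40 that Nanom6A did not list in KO.

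Hspd1 (Hsp60) and Hspe1 (Hsp10), the mitochondrial chaperonin and its lid, are neighbours transcribed in opposite directions, and the first bases of the transcripts used here are 108 bp apart. Hspd1, on chr1:55077835-55088243, had 27 positions, one for each RRACH position of its transcript, with 25 in WT and 27 in KO. Nanom6A listed 23 in WT and 26 in KO, all 23 among the 26, m6Anet 7 and 6, and Tombo 10 in each. The windows of 20 of its 27 positions, and of 2 of its 5 comparison positions, also occur in transcripts of other genes. Hspd1 was with Hspa5 and Hsph1 one of the 3 genes with more positions in KO than in WT. Of its 5 comparison positions, 4 lay in the last exon. The GGACC at 55078346, 56 nt before the stop codon, was listed by Tombo, Nanom6A, m6Anet, ELIGOS and Epinano in WT and by Tombo, Nanom6A and xPore in KO. The GGACT at 55077965, 325 nt beyond the first base of the stop codon, was listed by Tombo, Nanom6A and m6Anet in WT and by Nanom6A and m6Anet in KO. The remaining 3 were each in 1 comparison list, the AGACA at 55078065 in that of DiffErr, and the GAACT at 55078255 and the AGACA at 55080181 in that of Nanocompore.

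Hspe1, on chr1:55088132-55091307, had 7 RRACH positions on its transcript of 774 nt, and lists of both libraries held all 7. Nanom6A listed all 7 in both libraries, Tombo the same 3 in both, and m6Anet 3 in each with 2 shared. MINES, ELIGOS, Epinano, xPore and the comparison tools listed none. No position had more than 2 tools in WT. Of those with 2 tools in WT, the one in the fewest KO lists had AAACT in the 3′ UTR, with Nanom6A and m6Anet in WT and Nanom6A alone in KO.
Hspe1 chr1:55091223-55091243 (+): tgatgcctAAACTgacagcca
In the short chaperonin lid, as in Hsph1, m6Anet and Tombo thus listed as many positions in KO as in WT, or 1 more.

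How many of the 10 tools held a position, in their WT or comparison list, was its support. Since some tools share input, support is not a count of independent listings. A single tool listed 201 of the 355 positions, or 56.6% (51.4 to 61.7), against 65.3% over all genes, and 6 or more tools listed 10, or 2.82%, against 1.98%. No position was listed by all 10. The highest support in each gene was 9 tools in Hspa5, 8 in Hsp90b1 and Hspd1, 7 in Hspa4 and Hsp90ab1, 6 in Hspa8, Hspa9 and Hsp90aa1, 4 in Hsph1 and 2 in Hspe1.

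Another 58 genes of protein folding were counted the same way, among them heat shock factors, J proteins, exchange factors, small heat shock proteins, the TRiC chaperonin and enzymes of the endoplasmic reticulum. A listed position was found in 54 of them, 53 had one in WT, 53 in KO and 22 in a comparison list. Over the 9788 genes with at least 10 RRACH positions, 84.9% had no comparison position. More positions in WT than in KO were listed in 36 of the 58 genes, fewer in 9 and as many in 9. Such counts by direction over all genes are not given here. Of the 1266 positions of the 58 genes, 47, or 3.71%, were in a comparison list, between the 10.8% of the 10 chaperone genes and the 1.97% of all positions. Nanom6A listed 720 of their positions in WT and 650 in KO, with 15.4% of the WT positions absent from KO. The same share was 29.3% for Tombo (564 in WT, 477 in KO) and 62.6% for m6Anet (238 in WT, 126 in KO). For these 3 tools, the shares of the 58 genes thus also lay between those of the 10 genes and of all genes.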

How the data were processed

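The authors basecalled the DRS reads, aligned them to the mouse transcriptome, ran 10 tools and deposited 17 lists of positions (build mm10, that is GRCm38, per the labels). According to the methods, sites were evaluated in RRACH with a minimum of reads, and cut-offs were set against published m6A maps. The cut-off behind each deposited list is not given with the lists. The WT lists of Tombo and Epinano hold 75219 and 44559 positions, more than the paper reports for any tool at its cut-off. The lists may therefore differ from those calls, and overlaps between WT and KO depend on the cut-off. The deposited lists give chromosome, position, strand, transcript or gene and transcript position, with no value per position. Depth beyond the minimum of reads in the methods and precision of a call are therefore unknown. The members and the gene lists were chosen with earlier results of these data known.

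A position was a unique chromosome, start and strand, assigned by same-strand exons of GENCODE M21. On all 615 lines of the 10 genes with a transcript identifier, the listed transcript position fell on the listed base. Of the 370 positions, 3, in Hsp90b1, also lay in exons of another gene. Places were taken on the coding transcript named on most lines, RRACH positions from that spliced transcript, and 5-mers and windows of 21 bases from the GRCm38.p6 genome. A window counted as a copy when its 21 bases occurred in a transcript of another gene. Such copies existed for 117 positions, in 52 genes, 3 of which held listed positions. Of these 3 genes, Gm15344 and Gm25745 matched only Hsp90b1, at 1 and 2 positions, and held 1 and 2 listed positions. They may be the exons shared with Hsp90b1 rather than separate copies. Coding sequences were aligned globally with Biopython 1.88. Named were all members, the positions in a comparison list (the less supported ones as counts), the position with the most tools per gene, and positions in both libraries by at least 4 tools. The position 149617517 of Hsph1 was named after its values were seen. With 1 library per condition, values were described with 95% Wilson intervals and not tested. Placement and alignment were tested on simulated positions. Alternatives were joining positions within 5 bp, counting lines, assignment by the name on the line, leaving out a tool, a gene, shared exons or copies, any-tool KO lists, and other windows and transcripts. Python 3.11.15 with scipy 1.17.1, pysam 0.24.0 and matplotlib 3.10.9 were used.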

Additional observations from a re-analysis of the deposited data

How the results depend on the processing

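Of 83 alternative values, 66 stayed near the value reported (counts within 1.5 times of it, shares within its interval) and 17 moved. Counting 1 site per line gave 1234 positions in any list, 618 in WT, 537 in KO and 79 in a comparison list. A position can be on lines of several tools and on more than 1 line of the same tool. Leaving out the positions whose 21 bases recur in another gene, an alternative chosen after seeing the data, left 224 positions in KO and 20 in a comparison list, and gave 12.4% for the Nanom6A WT positions absent from KO. That share was 5.26% without Hspa4. When the KO list of any tool counted, the share of WT positions absent from KO was 5.08% for Tombo, 4.84% for m6Anet, 8.33% for Epinano, 6.25% for MINES and 0% for ELIGOS. On 1 coding transcript per gene, WT lists held 76.0% of the RRACH positions and KO lists 73.0%, against 59.97% and 57.6% over all exons. With windows of 100 and 400 nt around the stop codon, the share of WT positions was 9.58% and 31.3%, against 7.28% and 25.7% of the RRACH positions. No paired analysis was possible because there was 1 library per condition and the labels carry no replicate numbers. The lists give no read numbers, so how depth limits these values was not tested.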
